A study of Mus musculus with 8 samples.

Results

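Transcripts of the mitochondrial genome were followed in RNA that co-precipitated with DAZL, an RNA-binding protein of germ cells, from embryonic gonads of the mouse. They were represented by 4 of the 41101 array probes that were kept. CYTB, ND4L and BE368005 were taken because the scanner files place them on chromosome M, and COX2 was taken by its gene name because the files place it on chromosome 1. CYTB, COX2 and ND4L were chosen by their measured values, since they had given large falls from input to immunoprecipitate (IP) in earlier work on the same arrays. The differences between IP and input are therefore given here as a description, without a test.

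The 4 groups were input and IP of XX and of XY gonads, each with 2 arrays, from embryos of the MCH strain at E14.5, a stage of midgestation. The labels name no mutation or transgene in any group. Each lot held 50 pooled gonads with germ and somatic cells together, and the input was 5% of the lysate left after debris had been spun down. Cy3-labelled cRNA was made from 50 ng of RNA for inputs and from 1 ng for IPs. An effect of this amount therefore cannot be told apart from an effect of the IP. No array of a control immunoprecipitation was used here. The XX arrays shared a slide, and so did the XY arrays, which means that a difference between slides cannot be told apart from a difference between sexes. Between 16713 and 20391 probes were well above background on the input arrays and between 6068 and 9468 on the IP arrays. Of the 7 germ cell marker genes, 6 or 7 were above background on each input array. All 3 Sertoli cell markers were above background on both XY inputs, against 1 of 3 on both XX inputs.

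Mitochondria carry a small circular genome, present in many copies per cell, whose protein-coding genes all specify subunits of the respiratory complexes and ATP synthase. It is transcribed inside the organelle into long RNAs that are cut into mRNAs, given short poly(A) tails and translated by mitochondrial ribosomes behind the inner membrane. The remaining subunits of the same complexes are encoded in the nucleus, and their mRNAs are translated in the cytoplasm, where DAZL binds mRNAs of germ cells. The gonad at this stage holds germ cells among a larger number of somatic cells, all of which have mitochondria.

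The probes lie as follows on the mm8 mouse genome. CYTB (A_51_P315595), which encodes cytochrome b, the mitochondrially encoded subunit of complex III, lies on chromosome M from 15099 to 15158. ND4L (A_51_P245525) lies on chromosome M from 11370 to 11429. It is named for a complex I subunit, but its description in the files names NADH dehydrogenase 4, the product of the neighbouring gene, and both are read from a shared mRNA. BE368005 (A_51_P499122), an expressed sequence tag, lies on chromosome M from 11419 to 11475 and shares 11 bases of its interval with the ND4L probe, so these probes are not independent measurements. COX2 (A_51_P323880) is named for the complex IV subunit that carries the copper centre receiving electrons from cytochrome c. Its position, chromosome 1 from 24569175 to 24569234, is in the nuclear genome, and RNA from a nuclear copy of the sequence cannot be told apart here from the mitochondrial mRNA. Exons and untranslated regions are not given because no mm8 annotation was used. The scanner files hold no probe sequences, so none are shown.

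The mRNA of the precipitated protein served as a check of the IP. The Dazl level, given here and below as the log2 signal relative to the array's 75th percentile, was 5.30 and 5.39 on the XX input arrays, against 8.23 and 7.83 after IP (A_52_P271166). The XY input arrays had 3.92 and 4.33, against 6.33 and 6.04 after IP. The input and IP arrays did not overlap in either sex. The IP minus input difference was 2.69 ± 0.39 (SE) in XX, with an adjusted p of 0.00031, and 2.06 ± 0.39 in XY, with an adjusted p of 0.00201 (limma, n = 2 arrays per group). The calls depended on the processing. The XX difference was 0.68 after scaling to the 50th percentile (adjusted p = 0.182) and 0.45 under background correction with normexp, without and with outlying local backgrounds replaced (adjusted p = 0.553 and 0.0881). In XY these settings gave 0.20, 0.03 and -0.16 (adjusted p = 0.688, 0.98 and 0.514). The XY difference also missed the 4-fold limit under 5 further settings, with 1.65 to 1.92.

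All 4 mitochondrial probes were bright on the input arrays and far lower on the IP arrays in both sexes, where CYTB, ND4L and BE368005, but not COX2, came close to background. They were well above background on all 8 arrays, and none was saturated or marked as an outlier. The folds below depend on the scale. On the IP arrays the 75th percentile was 6.83 to 13.1 scanner units, below each array's lowest signal above background (12.8 to 18.3 units). On the input arrays it was 77.4 to 173 units, above that signal (12.4 to 15.3 units).

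CYTB gave processed signals of 22636 and 14802 scanner units on the XX input arrays, against 30.4 and 27.3 after IP. The XY arrays gave 13296 and 13011 before and 31.0 and 64.6 after IP. No IP array came near an input array. In XX its level was 7.31 ± 0.39 before and 1.44 ± 0.45 after IP, and in XY it was 7.07 ± 0.36 before and 2.24 ± 0.08 after IP (SD, n = 2). These are differences of -5.86 ± 0.42 and -4.83 ± 0.42 (SE), or 58.3-fold and 28.4-fold.

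COX2 gave 74995 and 61413 scanner units in XX before IP, and 154 and 213 after it. In XY its signals were 55427 and 49776 before IP, and 174 and 366 after it. It kept the clearest signal of the 4 over background in the IPs, at 3.09 to 5.73 times the local background of its spot. The level averaged 9.20 ± 0.62 for input and 4.09 ± 0.01 for IP of XX gonads, and 9.07 ± 0.28 for input and 4.74 ± 0.09 for IP of XY gonads (SD, n = 2). The difference was -5.11 ± 0.42 (SE) in XX, a 34.4-fold fall, and -4.33 ± 0.42 in XY, a 20.1-fold fall.

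ND4L gave 10381 and 7520 scanner units with XX input RNA and 43.8 and 20.4 with XX IP RNA. With XY RNA it gave 7682 and 6635 for the inputs and 28.8 and 38.1 for the IPs. Its XX IP arrays were the least alike of any group, with a level of 1.49 ± 1.12 (SD, n = 2). The other groups had levels of 6.26 ± 0.49 (XX input), 6.19 ± 0.24 (XY input) and 1.81 ± 0.38 (XY IP). The difference was -4.76 ± 0.53 (SE) in XX and -4.38 ± 0.53 in XY, or 27.1-fold and 20.8-fold. The XX value rested on single IP arrays, with -5.55 without XX IP replicate 1 and -3.97 without XX IP replicate 2.

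BE368005 gave 10698 and 8805 scanner units for the XX inputs, down to 31.4 and 23.3 for the IPs. The XY signals were 9598 and 8810, down to 41.4 and 56.1 for the IPs. The inputs of both sexes again lay far above all IP arrays. The XX levels were 6.39 ± 0.62 for input and 1.35 ± 0.65 for IP, and the XY levels 6.55 ± 0.30 for input and 2.35 ± 0.36 for IP (SD, n = 2). The difference was -5.04 ± 0.47 (SE) in XX and -4.20 ± 0.47 in XY, or 32.9-fold and 18.4-fold.

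**Figure D1:**
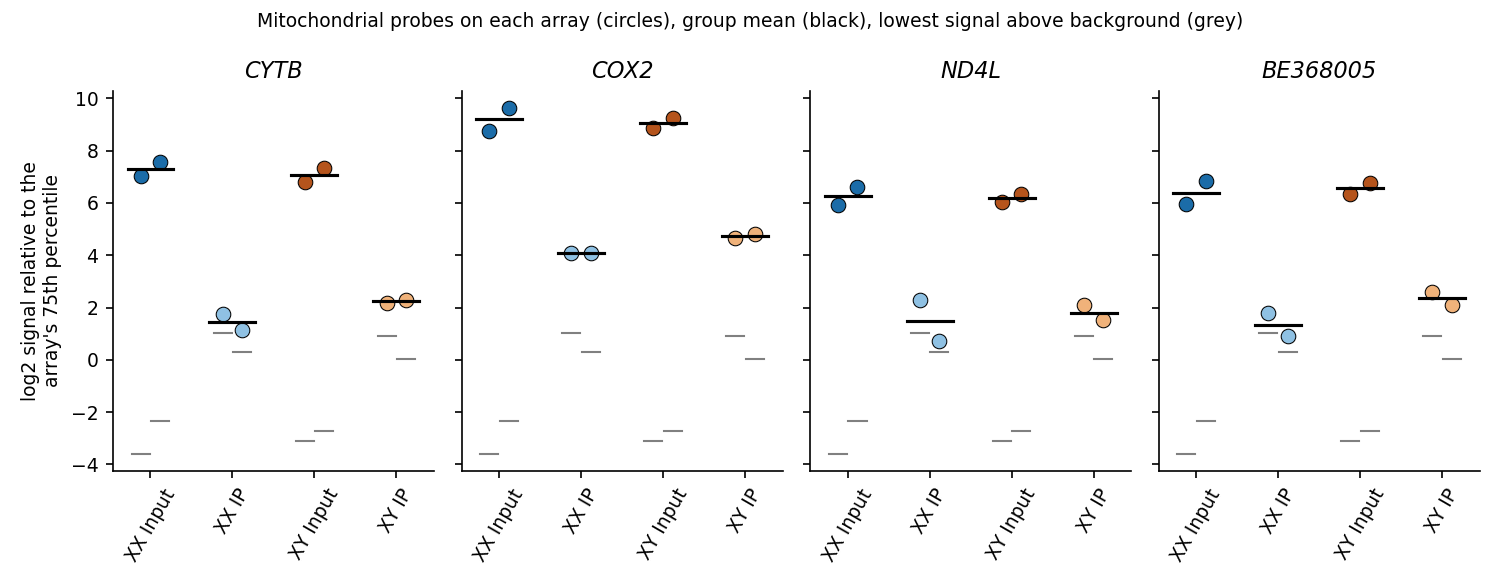
Log2 signal of the 4 mitochondrial probes relative to the 75th percentile of each array, for the 2 arrays of each group (circles), with the group mean as a black bar and the lowest signal called above background on each array as a grey bar. Every input array lies between 5.91 and 9.63, and CYTB, ND4L and BE368005 lie nearer to the grey bars on the IP arrays than COX2 does.

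The arrays set a limit to the falls that could be measured. CYTB, ND4L and BE368005 had a mean signal of 1.32 to 1.91 times the local background on the IP arrays, against 89.4 to 318 times on the inputs. The scanner software gave their IP signals an error of 11.1 to 19.1%. If ND4L had been at the lowest signal called above background on the XX IP arrays, its fall would have read 48.6-fold, against 27.1-fold measured. The same limit was 53.4-fold for BE368005, 101-fold for CYTB and 373-fold for COX2, each with its XX input. In XY it was 52.6-fold for ND4L, 67.8-fold for BE368005, 97.0-fold for CYTB and 387-fold for COX2. COX2 was thus measured furthest inside the range of the arrays.

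Each probe had its levels in the same order over the groups, with both inputs highest, the XY IP next and the XX IP lowest. The XX and XY inputs overlapped for all 4 probes. The XX and XY IP arrays overlapped for ND4L and did not overlap for CYTB, COX2 and BE368005. The fall in XX exceeded that in XY by 1.04 ± 0.60 (SE) on the log2 scale for CYTB, 0.78 ± 0.59 for COX2, 0.38 ± 0.75 for ND4L and 0.84 ± 0.67 for BE368005. The XX value minus the XY value of the IP minus input difference had a median of -0.81 over the 4 probes. Over all probes tested it was 0.03. No test was made because the members were chosen on both contrasts. Across the 8 arrays the 4 probes followed each other with a Pearson r of 0.982 to 0.997, a description that rests mainly on the gap between input and IP.

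The falls can be set beside those of all 18265 probes that both arrays of some group showed above background. The median IP minus input difference of all these probes was 0.09 in XX and -0.03 in XY, against -5.07 and -4.35 over the 4 mitochondrial probes. Ordered by fall, CYTB, COX2, BE368005 and ND4L held ranks 2, 3, 5 and 7 in XX. CYTB, ND4L, COX2 and BE368005 held ranks 5, 9, 12 and 16 in XY. These ranks moved with single arrays, to 3 to 90 in XX without XX IP replicate 2 and to 9 to 79 in XY without XY IP replicate 2. With quantile normalization they were 4 to 31 in XX and 29 to 109 in XY. The probes ranked among them in XX were both probes of BC012020 and that of Ctsz, which encodes a lysosomal protease, and none of these was above background on either XX IP array. Ahead of them in XY were Ctsz and a BC012020 probe, above background on neither XY IP array, and the other BC012020 probe and Clu, each above it on 1 of the 2. The order of the mitochondrial probes relative to these is therefore not settled. Among the 4206 probes that stood above background on every array, the mitochondrial ones held ranks 1 to 4 in both sexes. That filter leaves out the BC012020, Ctsz and Clu probes, and CYTB, COX2 and ND4L had been chosen for large falls.

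Bright input spots in general had lower levels in the IPs. The values below are a description, since CYTB, COX2 and ND4L had been chosen for large falls on these arrays. In XX, 322 other tested probes were at least as bright in the input as ND4L, the dimmest of the 4 there, and their median difference was -1.89. The lowest difference among them was -3.65, against -4.76 for the mitochondrial probe with the smallest fall. In XY, 342 probes were as bright, with a median of -1.34 and a lowest value of -3.21, against -4.20 for BE368005. Of these bright probes, 46.9% were called lower in XX and 25.4% in XY, at an adjusted p under 0.05 and at least 4-fold, against 9.91% and 7.68% of all tested probes. Brightness is that of the spot, and it does not rank the amounts of different RNAs.

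**Figure D2:**
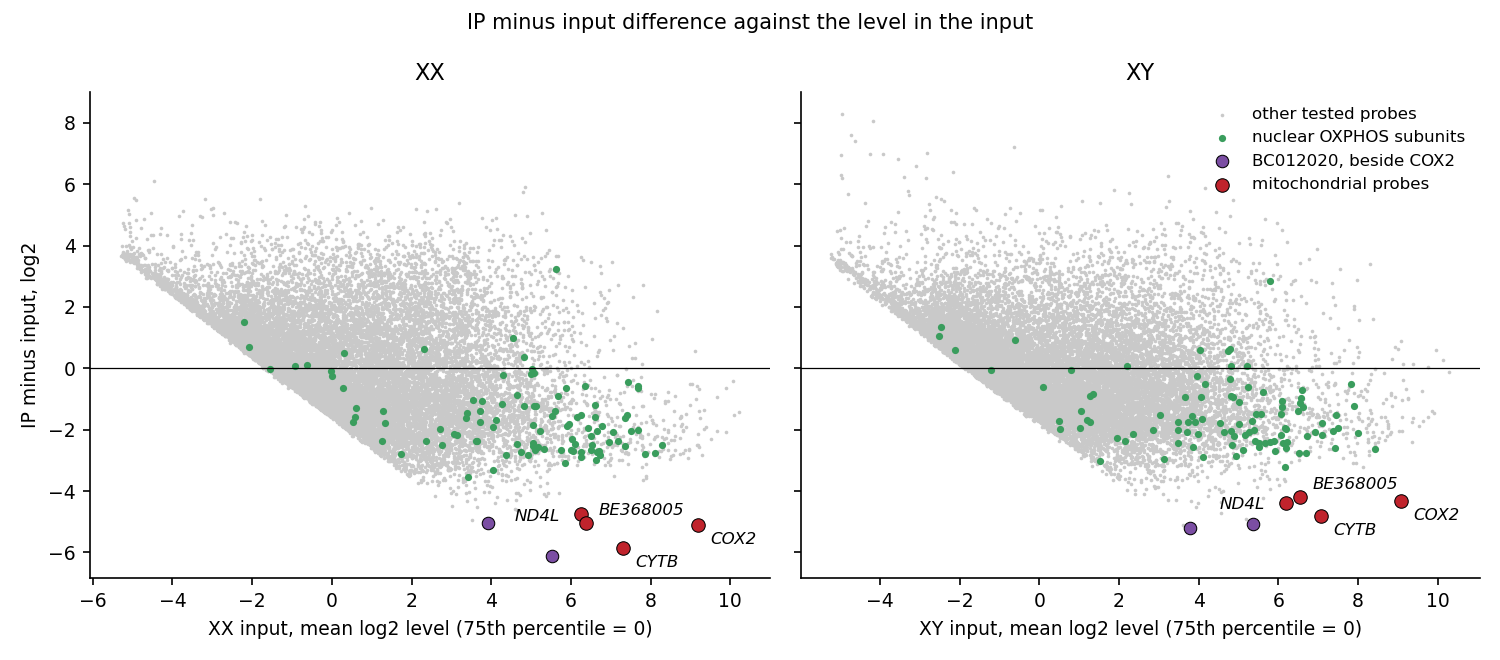
IP minus input difference (log2) against the mean log2 level in the input for 18265 tested probes, XX at left and XY at right, with nuclear OXPHOS subunits in green, the BC012020 probes in purple and the mitochondrial probes in red. The red points lie at -4.20 or lower on the bright side, below all other probes at least as bright in the input as the dimmest of them. The nearer BC012020 probe, dimmer in the input (5.51 in XX and 5.35 in XY), has fitted differences of -6.11 and -5.09. The cause of the slanted lower edge was not tested.

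The 2 probes of BC012020, a mouse mRNA, were the only other probes on the chromosome 1 stretch that holds COX2, 286 and 382 bases from it. They were singled out by position after the values had been seen and are not counted as members. Their p-values at the main setting are therefore left out. The nearer probe (A_52_P321318) gave 6470 and 4321 scanner units for the XX inputs against 9.08 and 5.44 for the IPs, and 4237 and 3784 for the XY inputs against 20.4 and 6.33 for the IPs. In the XX IP it was not well above background on either array, so the input was at least 29.1-fold higher. In the XY IP 1 of the 2 arrays measured it, and the fitted difference was -5.09 ± 0.72 (SE). Under 18 other settings that value lay between -6.95 and -3.71. The farther probe (A_52_P845178) gave 2171 and 1411 for the XX inputs and 1387 and 1308 for the XY inputs, and it was not above background on any IP array. Its input was at least 9.62-fold higher in XX (adjusted p = 0.000156) and at least 9.93-fold higher in XY (adjusted p = 0.000159), where normexp gave a fitted difference of -2.41 that did not pass (adjusted p = 0.0607). As a description, both neighbours of COX2 were lower in the IPs as COX2 was.

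The mitochondrial probes made up 0.473 and 0.716% of the summed signal of the XX input arrays, and 0.0172 and 0.00919% of that of the XX IP arrays. For XY the shares were 0.475 and 0.581% before and 0.0233 and 0.0154% after IP. The share on every input array was more than 10-fold that on every IP array. Red blood cells, which are carried into the gonad with its vessels, were followed by 6 marker genes, whose share was 0.315 and 0.383% in XX before IP and 0.0337 and 0.0664% after it. For XY it was 0.391 and 0.466% before IP, against 0.0613 and 0.0801% after it. By probe, 3 of 7 tested probes of this list were called lower in each sex, at an adjusted p under 0.05 and at least 4-fold, where the background of probes called lower was 9.91% in XX and 7.68% in XY. The summed share of the germ cell markers went the other way. It was 0.0784 and 0.0750% in XX before and 0.316 and 0.199% after IP. In XY it was 0.132 and 0.142% before and 0.416 and 0.415% after IP. On each XX IP array 5 of the 7 genes were above background. Of their 8 tested probes, 4 were called higher in each sex, where the background of probes called higher was 14.0% in XX and 10.2% in XY. These were both Dazl probes and those of Dppa3 and Tdrd1. Not all markers rose. Mael gave -0.59 in XX and -0.92 in XY, Dnd1 gave 0.15 and 0.54, and Pou5f1 gave 0.06 in XY. Leydig cell markers were at 0.00102 to 0.00231% on all XX arrays, inputs and IPs alike, and in XY at 0.0630 and 0.0553% before and at 0.00764 and 0.00871% after IP. By probe, 3 of 6 Leydig cell probes were called lower in XY and 1 higher in XX, and 1 of 4 Sertoli cell probes was called lower in XY and 1 higher in XX. Of 2 pre-granulosa cell probes both were called lower in XX and 1 higher in XY. Of 2 endothelial probes, for Cdh5 and Kdr, both were called lower in XX. In XY these missed the 4-fold limit (adjusted p = 0.0353 and 0.0190 in limma). Cdh5, Kdr and the pre-granulosa gene Wnt4 were above background on neither XX IP array. Their XX input was at least 1.51-fold, 3.09-fold and 2.09-fold higher. None of the Leydig, Sertoli and pre-granulosa cell probes called higher was above background on any array of that sex. The part of these cells in the fall of the mitochondrial probes was not tested.

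**Figure D3:**
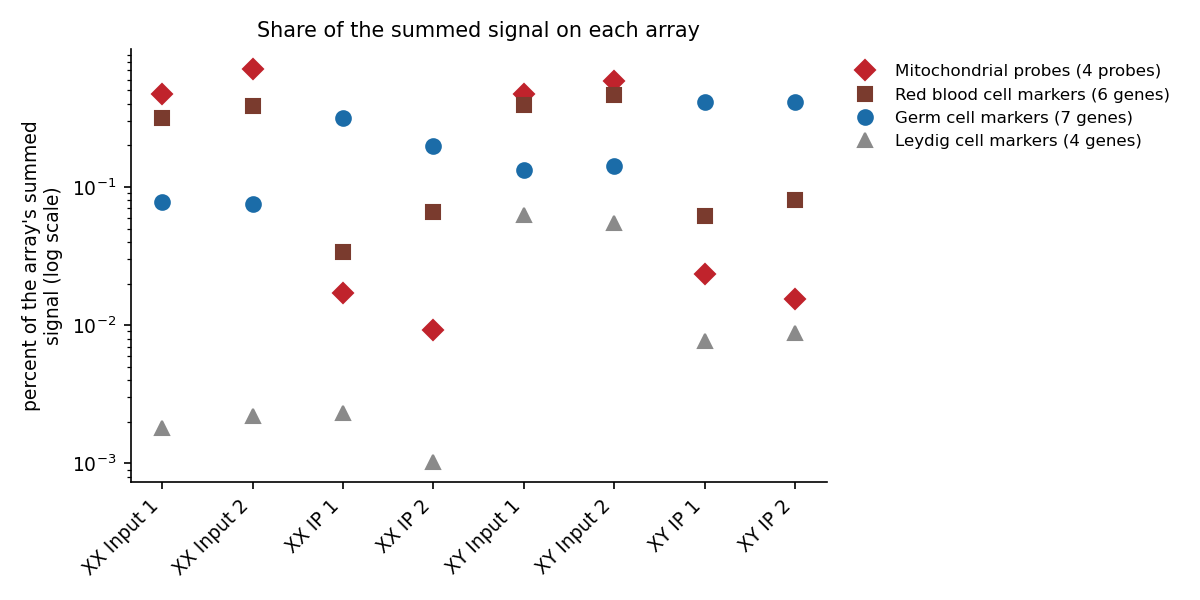
Share of each array's summed signal (percent, log scale) taken by the 4 mitochondrial probes and by marker genes of red blood cells, germ cells and Leydig cells, each point being 1 array. The mitochondrial probes lie at 0.473% or higher on the inputs and at 0.0233% or lower on the IPs. The summed share of the germ cell markers is higher on the IPs of both sexes.

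To ask whether the starting RNA of both sexes held the same amount of these transcripts, the inputs were compared. This contrast took no part in choosing the members. XX minus XY was 0.24 ± 0.42 (SE) for CYTB, 0.13 ± 0.42 for COX2, 0.07 ± 0.53 for ND4L and -0.16 ± 0.47 for BE368005. None of the 4 passed an adjusted p of 0.05 in limma (adjusted p from 0.821 to 0.965), and 0 passed an unadjusted p of 0.05, where 5.87% of all tested probes were higher and 6.10% lower in the XX input. The 95% intervals were -0.68 to 1.16 for CYTB, -0.79 to 1.05 for COX2, -1.09 to 1.23 for ND4L and -1.19 to 0.87 for BE368005, so that differences over 2-fold in either direction are not excluded for every probe. The median of the 4 differences moved from 0.10 to 1.04 with normexp, against 0.07 over all tested probes. It was 0.12 with normexp after outlying local backgrounds were replaced. In whole gonads, fewer cells of a type and less RNA per cell cannot be told apart.

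The nuclear genes for subunits of the same complexes also had lower levels in the IPs, with smaller differences where the IP arrays measured them than those for which the members had been chosen. Of 76 listed genes, 74 had a tested probe, with 100 probes in all. In XX, 44 of the 100 were called lower (39 genes) against a background of 9.91%, and 1 was called higher against 14.0%. In XY, 42 were called lower (37 genes) against 7.68% and 1 higher against 10.2%. The counts depended on the setting. Without XY IP replicate 1 the XY median of the 100 probes was -1.40, against 0.04 over all tested probes. Scaled to the 50th percentile it was -3.87 in XX and -3.63 in XY, against -1.92 and -1.90. With normexp it was -2.90 in XX, against -0.01. In each sex, 4 of the probes called lower were not above background on either IP array. The median difference of the 100 probes was -1.87 in XX and -1.77 in XY, and the largest falls that every array measured above background were -3.10 and -3.20. The lowest fitted value of all, -3.54 for Ndufa3 in XX, came from a probe that was not above background on either IP array, where the input was at least 6.78-fold higher. The falls of such probes have no upper limit here. Among the bright probes described above, 28 belonged to this list in XX, with a median of -2.14, and 22 in XY, with a median of -2.01, against -1.89 and -1.34 over all bright probes. Of these, 18 of 28 were called lower in XX and 11 of 22 in XY, where the share over all bright probes was 46.9% and 25.4%.

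COX2 works in complex IV beside Cox4i1, Cox5a and Cox5b, which are nuclear subunits around its catalytic core. Cox4i1 had levels of 7.32 and 7.69 in XX before and 4.95 and 5.94 after IP, and of 7.29 and 7.61 in XY before and 5.47 and 6.41 after IP. Its fall of 2.06 ± 0.48 (SE) was called in XX, with an adjusted p of 0.00423, and it lost the 4-fold limit without XX input replicate 2 or XX IP replicate 1. In XY the difference of -1.51 ± 0.48 missed the 4-fold limit (adjusted p = 0.0250). Cox5b had a difference of -2.19 ± 0.47 in XX, which was called (adjusted p = 0.0028) but fell short of 4-fold without XX IP replicate 1 (-1.78), and of -1.98 ± 0.47 in XY, which missed the fold limit (adjusted p = 0.00658). Cox5a differed by -0.58 ± 0.49 and -0.96 ± 0.49, neither past an adjusted p of 0.05. Cox5b in XY was called under 7 of 19 other settings (lowest value -3.84), Cox4i1 in XY under 3, and Cox5a under 3 in XX and 2 in XY. Of the 11 tested complex IV probes, 6 were called lower in XX (background 9.91%) and 3 in XY (7.68%), with medians of -2.06 and -1.51.

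CYTB sits in complex III with the core proteins Uqcrc1 and Uqcrc2 and the Rieske iron-sulphur protein Uqcrfs1. Uqcrc1 differed by -1.86 ± 0.46 in XX and -1.71 ± 0.46 in XY, and Uqcrc2 by -1.56 ± 0.44 and -1.80 ± 0.44 (SE). All of these had an adjusted p under 0.05 in limma (0.00606, 0.0118, 0.0118 and 0.00722) and missed the 4-fold limit. Under the 19 other settings Uqcrc1 was called lower 7 times in XX and 6 times in XY, and Uqcrc2 4 and 6 times. A second Uqcrc1 probe (A_51_P109835), above background on 1 of the 2 IP arrays in each sex, was called lower in both, with -2.16 ± 0.53 in XX and just over 4-fold in XY (adjusted p = 0.00611 and 0.0115). Uqcrfs1 was at 4.48 and 4.64 in XX before and at 5.12 and 5.94 after IP, and at 4.70 and 4.75 in XY before and at 4.83 and 5.76 after IP. Its arrays did not overlap, with the IPs above the inputs, but the difference of 0.97 ± 0.45 in XX and 0.57 ± 0.45 in XY did not pass (adjusted p = 0.0929 and 0.332), and its sign turned after scaling to the 50th percentile and after both normexp corrections. Of the 11 complex III probes, 6 were called lower in XX (background 9.91%) and 5 in XY (7.68%), with medians of -2.05 and -1.94.

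ND4L is a subunit of complex I, as are the products of the nuclear genes Ndufs1, Ndufv1 and Ndufa9. Ndufv1, the subunit that takes electrons from NADH, was called lower in both sexes, with -2.03 ± 0.45 and an adjusted p of 0.00353 for XX and -2.37 ± 0.45 and an adjusted p of 0.00204 for XY. It lost the 4-fold limit in XX without input replicate 1 (just short of it) or IP replicate 1 (-1.58), and in XY without IP replicate 1 (-1.92). Ndufs1 differed by -0.15 ± 0.41 and -0.52 ± 0.41 and passed in neither sex (adjusted p = 0.777 and 0.327). Ndufa9 differed by -1.38 ± 0.43 and -1.10 ± 0.43 and missed the 4-fold limit (adjusted p = 0.0203 and 0.0611). Ndufa9 was called under 3 other settings in XX and 2 in XY, and Ndufs1 under 1 and 2. Complex I had 52 tested probes, of which 21 were called lower in each sex (background 9.91% in XX and 7.68% in XY) and 1 higher (14.0% and 10.2%), with medians of -1.77 and -1.71.

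Complex II has no mitochondrially encoded subunit. Of its 5 tested probes 0 were called lower in XX by limma, where 2 had an unadjusted p under 0.05 and the background was 9.91%. In XY, 1 probe, for Sdhb, was called lower (background 7.68%), with a difference of -2.96 ± 0.40 (SE), and the medians were -0.26 in XX and -0.95 in XY. Sdha, its flavoprotein, was not above background on either XX IP array and on 1 of the 2 XY IP arrays. In the ATP synthase, 11 of 21 probes were called lower in XX and 12 in XY, against the same backgrounds, with medians of -2.08 and -2.02. The brightest probe of Atp5b (Atp5f1b), its catalytic subunit, differed by -1.61 ± 0.47 in XX and -1.24 ± 0.47 in XY (adjusted p = 0.0151 and 0.0537) and was not called, but was called under 6 of 19 other settings in XX and 3 in XY. Its probe A_51_P207636, above background on 1 of the 2 IP arrays in each sex, was called lower in both, with -2.13 ± 0.64 in XX and -2.55 ± 0.64 in XY (adjusted p = 0.0163 and 0.00837), and its probe A_52_P553841 gave 0.51 and -1.40 and was not called.

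**Figure D4:**
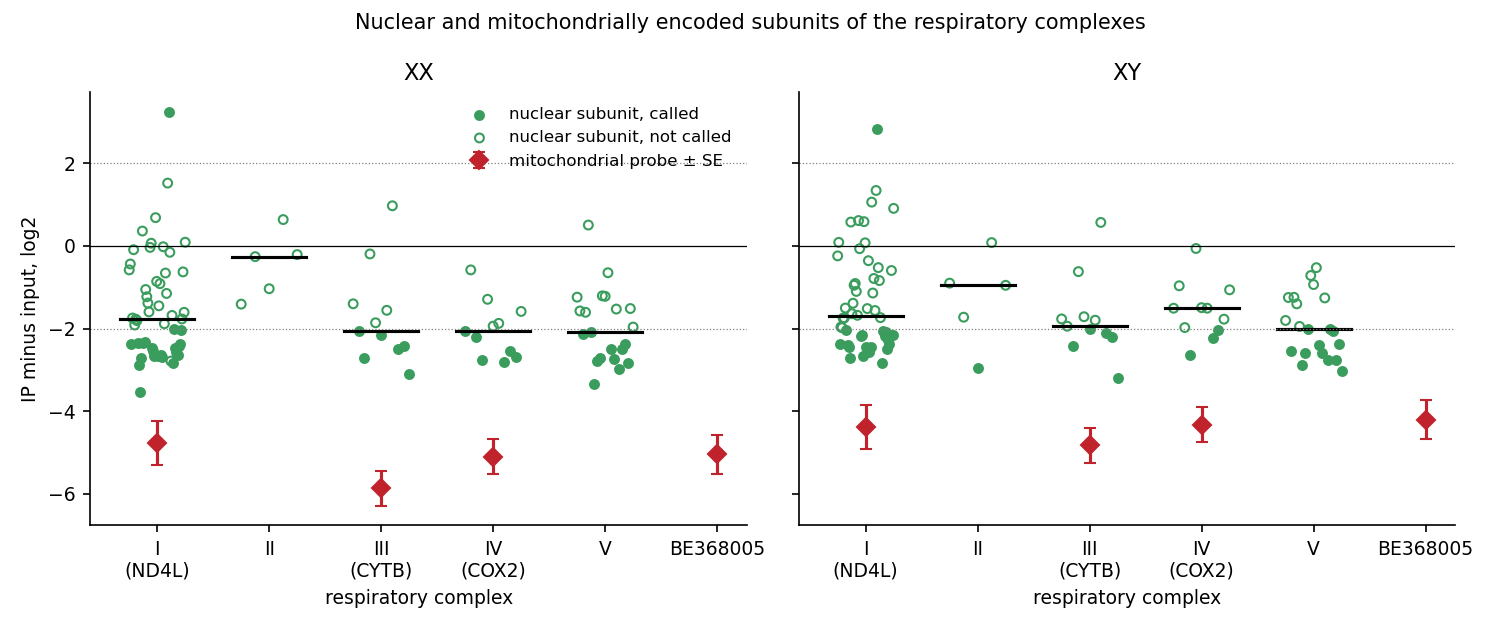
IP minus input difference (log2) of nuclear subunit probes by respiratory complex (green, filled where called at an adjusted p under 0.05 and at least 4-fold, shown as dotted lines; median as a black bar) and of the mitochondrial probes with their standard error (red), XX at left and XY at right. The red points lie between -5.86 and -4.20, and the lowest green point, a fitted -3.54 for Ndufa3 in XX, was not above background on the IP arrays.

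Nuclear subunits at both ends of the range were named by rule, from probes that every array of a sex showed above background (74 probes in XX and 73 in XY). The largest fall in both sexes was that of Uqcrq, a small complex III subunit, with -3.10 ± 0.43 in XX and -3.20 ± 0.43 in XY (SE). Atp5j2, a subunit of ATP synthase, was the next in XX, with -2.99 ± 0.42, and Ndufs4, an accessory complex I subunit, was the next in XY, with -2.84 ± 0.56. Ndufc2, an accessory complex I subunit, rose, with 3.25 ± 0.46 and an adjusted p of 0.000248 for XX and 2.84 ± 0.46 and an adjusted p of 0.000758 for XY. It was the only probe of the list called higher at the main setting, and with the 50th percentile and both normexp settings it was called in neither sex. The second highest values were those of Uqcrfs1 in XX and of an Ndufab1 probe in XY (0.62 ± 0.50), and neither passed. In the inputs 3 of the 100 probes were higher in XX than in XY, against a background of 5.87%, and 0 were lower in limma, also at an unadjusted p under 0.05, against 6.10%. These 3 were both Ndufa1 probes, with 2.40 ± 0.51 and 2.24 ± 0.50, and an Atp5pb probe, with 1.52 ± 0.43, named after their values had been seen.

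The nuclear genes that transcribe, process and translate the mitochondrial genome were followed by 31 tested probes of 21 genes. In XX, 3 probes were called lower against a background of 9.91% and 4 higher against 14.0%. In XY, 2 were called lower against 7.68%, and 0 were called higher by limma against 10.2%, with 4 higher at an unadjusted p under 0.05. The median difference was -0.72 in XX and -0.51 in XY, against 0.09 and -0.03 over all tested probes. Those called were few enough to be named, with their values in view. Slirp, which stabilises mitochondrial mRNAs with Lrpprc, was called lower in both sexes, with -2.63 ± 0.45 in XX and -2.16 ± 0.45 in XY, its XX signal after IP being above background on 1 array of 2, while its other probe gave -0.73 and -0.51 and was not called. Mtif2, a mitochondrial initiation factor, was called lower in both sexes and Pnpt1 in XX, but neither was above background on those IP arrays. The XX input was then at least 1.13-fold higher for Mtif2 and at least 1.39-fold higher for Pnpt1. Another Mtif2 probe gave -0.81 in XX and -0.44 in XY and was not called. Tfam, which packages mitochondrial DNA and starts its transcription, had 2 probes called higher in XX, with 2.98 ± 0.48 (above background on 1 of the 2 IP arrays) and 2.00 ± 0.39, and another probe that gave -0.95 and was not called. Tefm and Tfb2m, both needed for mitochondrial transcription, were the others called higher in XX, with 2.47 ± 0.42 and 2.14 ± 0.55. The Tefm probe was above background on 1 of the 2 input and 1 of the 2 IP arrays, and another Tfb2m probe gave 1.22 and was not called. With the 50th percentile and both normexp settings 0 probes of this list were called higher in XX by limma.

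The probes most like the mitochondrial ones in their course over the 8 arrays were sought among 3943 named probes above background on all arrays. The 5 with the highest Pearson r to the mean of the 4 probes were those of Tpp2 (0.997), Echdc2 (0.990), Gadd45g (0.990), Atxn2 (0.983) and Scaf11 (0.981), and 327 probes had an r over 0.9. Their own falls were smaller, from -1.43 for Atxn2 to -2.78 for Echdc2 in XX and from -1.10 for Atxn2 to -2.05 for Echdc2 in XY. The likeness is thus one of shape and not of size, and it rests on 8 points from 4 groups that share their arrays.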

How the data were processed

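RNA of inputs and anti-DAZL IPs from XX and XY gonads (2 arrays each) had been hybridised by the authors to 1-colour Agilent arrays. The deposited scanner files hold intensities, per the file headers from Feature Extraction 9.5.3.1 (9.5 in the submitters' processing notes, credited as Agilent Feature Extraction), with positions on mm8. A deposited table holds log2 values that the authors had floored at 1 and scaled to each array's 75th percentile. It was used as an alternative, and its columns shared a 75th percentile of 5.05.

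From the scanner files, outlier spots were left out, signals under 1 set to 1, spots of a probe averaged, and log2 values taken relative to the array's 75th percentile. Of 41174 probes, 73 with no usable spot on some array were dropped. Well above background is the software's mark. The 18265 probes so marked on both arrays of at least 1 group were fitted with limma 3.58.1 (R 4.3.3) on all 8 arrays, with 1 mean per group, empirical Bayes and two-sided Benjamini-Hochberg adjusted p-values over all 18265. A probe was called at an adjusted p under 0.05 and at least 4-fold (inputs: no fold limit). Where a side was not above background on either array, "at least" folds use, per array, the higher of its signal and the lowest signal above background. The procedure was tested on simulated data. Nothing in the labels says that the lots were separate litters, so p-values measure the spread between these arrays, which may be technical.

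Probes were named through their accession (23374), their symbol (6733) or an older symbol (2919) in the GRCm38.p6 table of RefSeq, used for names only, and 8148 stayed unnamed. Members and gene lists were chosen with earlier results of these data known. The named genes were the members, 11 set nuclear partners by their brightest tested probe, Dazl, the 5 most alike probes, and the 2 largest falls and rises among nuclear subunits in each sex. Markers were fixed lists of germ (7 genes), Sertoli, pre-granulosa, Leydig, endothelial, red blood cell and mesonephros genes. Mesonephros markers had 0 tested probes. Alternatives were other scalings, quantile normalization, normexp (offset 50), the authors' table, other filters, a replicate block, fits on 4 arrays and each array left out. With 2 arrays a group, precision is limited by their number.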

Additional observations from a re-analysis of the deposited data

How the results depend on the processing

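Under the 19 other settings all 152 differences of single mitochondrial probes between IP and input stayed below 0, between -7.87 and -3.95. Their median moved from -5.07 in XX and -4.35 in XY to -7.08 and -6.22 with scaling to the 50th percentile. That scaling shifted the median of all tested probes to -1.92 and -1.90, and the distance of the mitochondrial median from it, -5.16 and -4.32, was the same as at the main setting. In XY the median was -4.77 with scaling to the summed signal, -4.94 with normexp and -5.61 with normexp after replacing outlying local backgrounds, a setting added after seeing the data because plain normexp had misjudged the background on 2 XY arrays. Leaving out 1 array at a time gave -5.53 to -4.64 in XX and -4.55 to -4.17 in XY. Member sets chosen after seeing the data (with BC012020, without COX2, without BE368005) gave -5.11 to -5.04 in XX and -4.60 to -4.38 in XY. In the inputs none of 76 values of single members passed, with differences from -0.60 to 1.23 and a lowest adjusted p of 0.232.

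Nuclear subunit probes called lower numbered 44 in XX and 42 in XY. They rose to 90 and 85 with the 50th percentile, to 76 in XX with normexp, and to 76 and 73 with the added normexp. The 50th percentile also moved the median of all tested probes, to -1.92 in XX and -1.90 in XY. That median was -0.01 in XX with either normexp and -0.08 in XY with the added normexp. Shares of all tested probes called at these other settings are not given, so the counts in this paragraph lack a background there. Leaving out 1 array gave 34 to 56 in XX and 24 to 58 in XY. The 1 probe called higher in each sex, Ndufc2, became 0 with the 50th percentile and with both normexp settings, and 10 in XX and 9 in XY with no filter. At the main setting 9.68% of the probes of mitochondrial gene expression factors were called lower in XX, against 9.91% of all tested probes. Without such a background at the other settings, a change in the counts below cannot be told apart from one of all probes. Factor probes called lower in XX went from 3 to 19 with the 50th percentile and 7 with quantile normalization. They became 0 with probes above background on all 8 arrays, and 5 with either normexp, the summed signal or the 75th percentile of always detected probes. Those called higher in XX went from 4 to 0 with the 50th percentile and with both normexp settings, to 2 with quantile normalization, the summed signal or always detected probes as scale, to 1 with always detected probes only, and to 14 with no filter. In XY the 2 called lower became 19 with the 50th percentile, 4 with quantile normalization and with the added normexp, and 0 with always detected probes only, and the 0 called higher became 9 with no filter. Leaving out 1 array gave 3 to 5 lower and 2 to 4 higher in XX and 1 to 2 lower in XY. The difference of Dazl lost its call under 3 settings in XX (0.68 with the 50th percentile, 0.45 with both normexp settings) and under 8 in XY (among them 0.20 with the 50th percentile and 0.03 with normexp), where it turned to -0.16 with the added normexp. Nuclear partners not called at the main setting were each called lower under 1 to 7 other settings, except Uqcrfs1, which was called under 0 of 19 in limma. The cause of these shifts was not tested.

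With the replicate number as a block, 45 nuclear subunit probes were called lower in XX and 42 in XY, and no other count moved. Deviations of same-numbered arrays correlated at 0.03 between XX input and XX IP and at 0.14 between XY input and XY IP, against 0.52 between the inputs and 0.54 between the IPs of the sexes. The labels do not say what a number shares, and with 2 arrays per group the numbers were not taken to pair the arrays. With the block none of the 4 members differed between the inputs at an adjusted p under 0.05 (0.759 to 0.955). CYTB, ND4L and BE368005 lay close to background on the IP arrays, which limits how large a fall could be read.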
